A study of Mus musculus with 3 samples.

Results

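Genes of sodium, calcium, TRP, acid-sensing, HCN and Clcn chloride channels were followed across 3 segments of the embryonic mouse gut. Members were chosen by gene name, as every name opening with Scn, Cacna, Cacnb, Cacng, Trpa, Trpc, Trpm, Trpv, Accn, Hcn or Clcn in the pattern of a channel subunit. The names found 82 of the 33762 features in the table, with 81 distinct symbols because Scn8a stood under 2 identifiers. Of these, 58 had at least 20 mean counts in at least 1 tissue and entered the counts and sums, while 24 did not. One of the 58, Trpc4ap, encodes a protein that binds a TRP channel and is not itself a channel.

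The RNA came from wild type embryos of the strain given as Bl6/C57 at E13.5, and polyadenylated RNA of caecum, colon and presumptive ileum was sequenced to ask how expression differs along the gut. Each tissue had 1 library, so the 3 comparisons (caecum over ileum and over colon, and colon over ileum) have no replicate check and no p-value. The deposited table held 2 count columns per tissue, which its headers number as rep 1 and rep 2 while the labels give 1 sample, and these differed by less than counting noise allows between separate libraries, with a squared difference of 0.486 times the counting variance in the caecum, 0.486 in the colon and 0.485 in the ileum. They were therefore averaged and counted as 1 sample. Whole-tissue RNA mixes neurons, glia, muscle, epithelium and other cells, and the labels do not say whether several embryos were pooled.

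Voltage-gated sodium channels carry the rising phase of the action potential, and their beta subunits are adhesion proteins that tune gating and surface levels. Voltage-gated calcium channels have a pore-forming alpha1 subunit, with alpha2delta and beta subunits that help it to the membrane, and they drive muscle contraction and transmitter release. TRP channels pass cations in response to receptors, temperature, stretch or chemical ligands, acid-sensing channels open on protons, HCN channels carry a pacemaker current, and Clcn proteins are chloride channels of the surface or proton-coupled chloride exchangers of endosomes and lysosomes. In the gut wall such channels are known from enteric neurons, smooth muscle, the pacemaker cells called interstitial cells of Cajal, and epithelium.

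The libraries summed to 64439972 counts in the caecum, 50773032 in the colon and 50079916 in the ileum. The named members held 0.185% of caecum counts, 0.165% of colon counts and 0.164% of ileum counts. The tissue labels were checked with position genes: Hoxd13, a gene of the hindmost gut, had 13 counts in the caecum, 2354 in the colon and 1 in the ileum, Hoxd10 had 4117 in the caecum, 650 in the colon and 2 in the ileum, and Gata4, a gene of the more anterior gut, had 4 in the caecum, 58 in the colon and 702 in the ileum. These orders did not go against the labels.

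Levels are given as the authors' RPKM, a read count divided by transcript length and library size, which allows comparison between genes. Summed over the 58 members, RPKM came to 262 in the caecum, 224 in the colon and 230 in the ileum. Only 10 members reached 10 RPKM in any tissue, namely Cacnb3, Trpc4ap, Trpm7, Cacna1h, Cacna2d1, Cacng7, Cacna1d, Clcn4-2, Cacna1c and Trpm5. Another 27 peaked between 1 and 10 RPKM, and 21 stayed under 1 RPKM in all 3 tissues. The caecum held the highest RPKM of 23 members, the colon of 17 and the ileum of 18. Conversely the ileum held the lowest RPKM of 26 members, the colon of 22 and the caecum of 10.

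**Figure D1:**
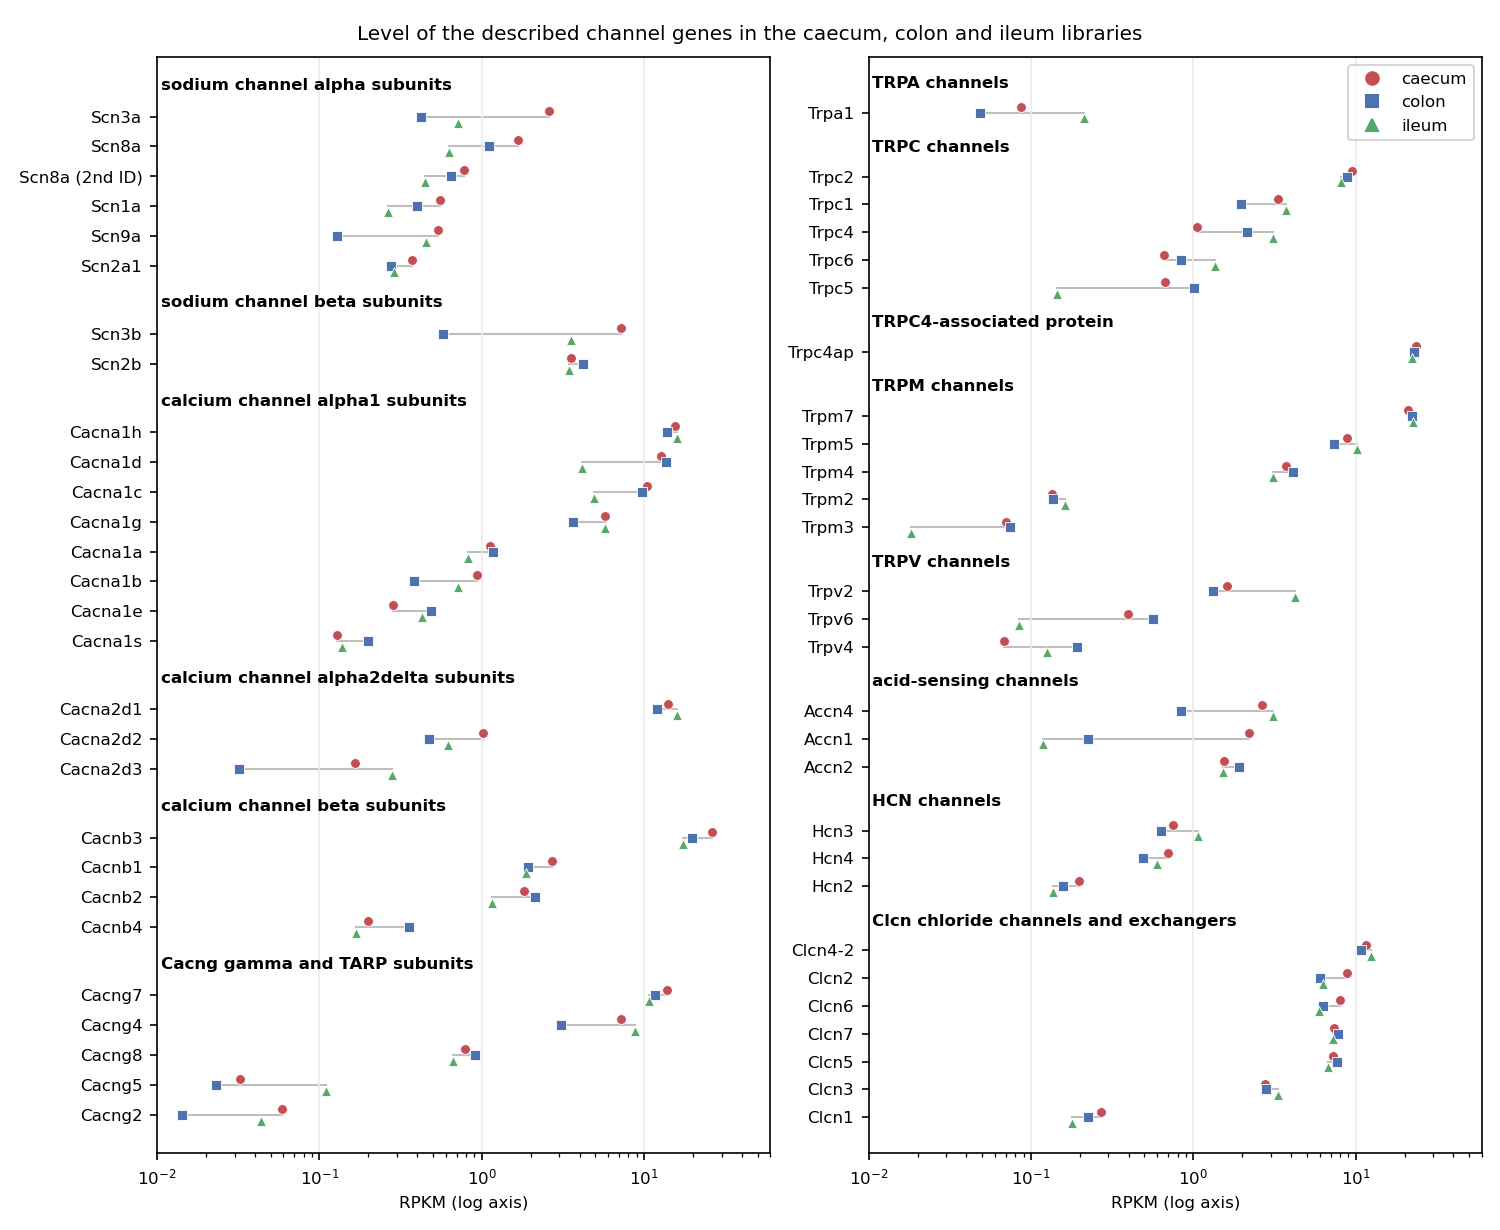
RPKM of the described members on a log axis, grouped by subunit family, with a circle for the caecum, a square for the colon and a triangle for the ileum library. Scn3b spans 7.23 RPKM in the caecum, 0.575 in the colon and 3.56 in the ileum, whereas Trpm7 lies between 21.2 and 22.5 RPKM in all 3.

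Fold changes were ratios of scaled counts, given with a 95% interval of counting error only, and a member counted as different where the fold was 2 or more. Caecum over ileum, 10 of 58 members were higher (17.2%) and 5 were lower (8.62%), against 4.59% and 2.52% of the 17827 features compared. The 10 higher members were Accn1, Trpv6, Trpc5, Scn3a, Trpm3, Cacna1d, Scn8a, Cacna1c, Scn1a and Scn3b, and the 5 lower ones were Cacng5, Trpc4, Trpv2, Trpa1 and Trpc6. The median log2 fold was 0.21 over the members and 0.01 over all features. With the whole interval past 2-fold, 6 of 58 members remained higher and 2 of 58 lower, against 2.23% and 1.31% of all features.

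Caecum over colon, 10 of 57 members were higher (17.5%) and 1 was lower (1.75%), against 5.11% and 2.74% of the 17900 features compared. Higher were Scn3b, Accn1, Scn3a, Cacna2d3, Scn9a, Cacng2, Accn4, Cacna1b, Cacng4 and Cacna2d2, and Trpv4 was lower. The median log2 fold was 0.23 over the members and 0.01 over all features. The whole interval lay past 2-fold for 8 of 57 members on the higher side and 0 of 57 on the lower, against 2.86% and 1.28% of all features.

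Colon over ileum, 5 of 57 members were higher (8.77%) and 8 were lower (14.0%), against 4.04% and 4.29% of the 17579 features compared. Trpc5, Trpv6, Trpm3, Cacna1d and Cacnb4 were higher, and Cacna2d3, Scn3b, Cacng5, Trpa1, Accn4, Scn9a, Trpv2 and Cacng4 were lower. The median log2 fold was 0.01 over the members and -0.00 over all features. The interval lay wholly past 2-fold for 3 of 57 members on the higher side and 7 of 57 on the lower, against 1.97% and 2.40% of all features. Across the 3 comparisons 24 members differed at least once and 34 stayed within 2-fold throughout. The 3 comparisons share libraries, so their counts are not independent of each other, and these shares describe 3 libraries without singling out channel genes.

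**Figure D2:**
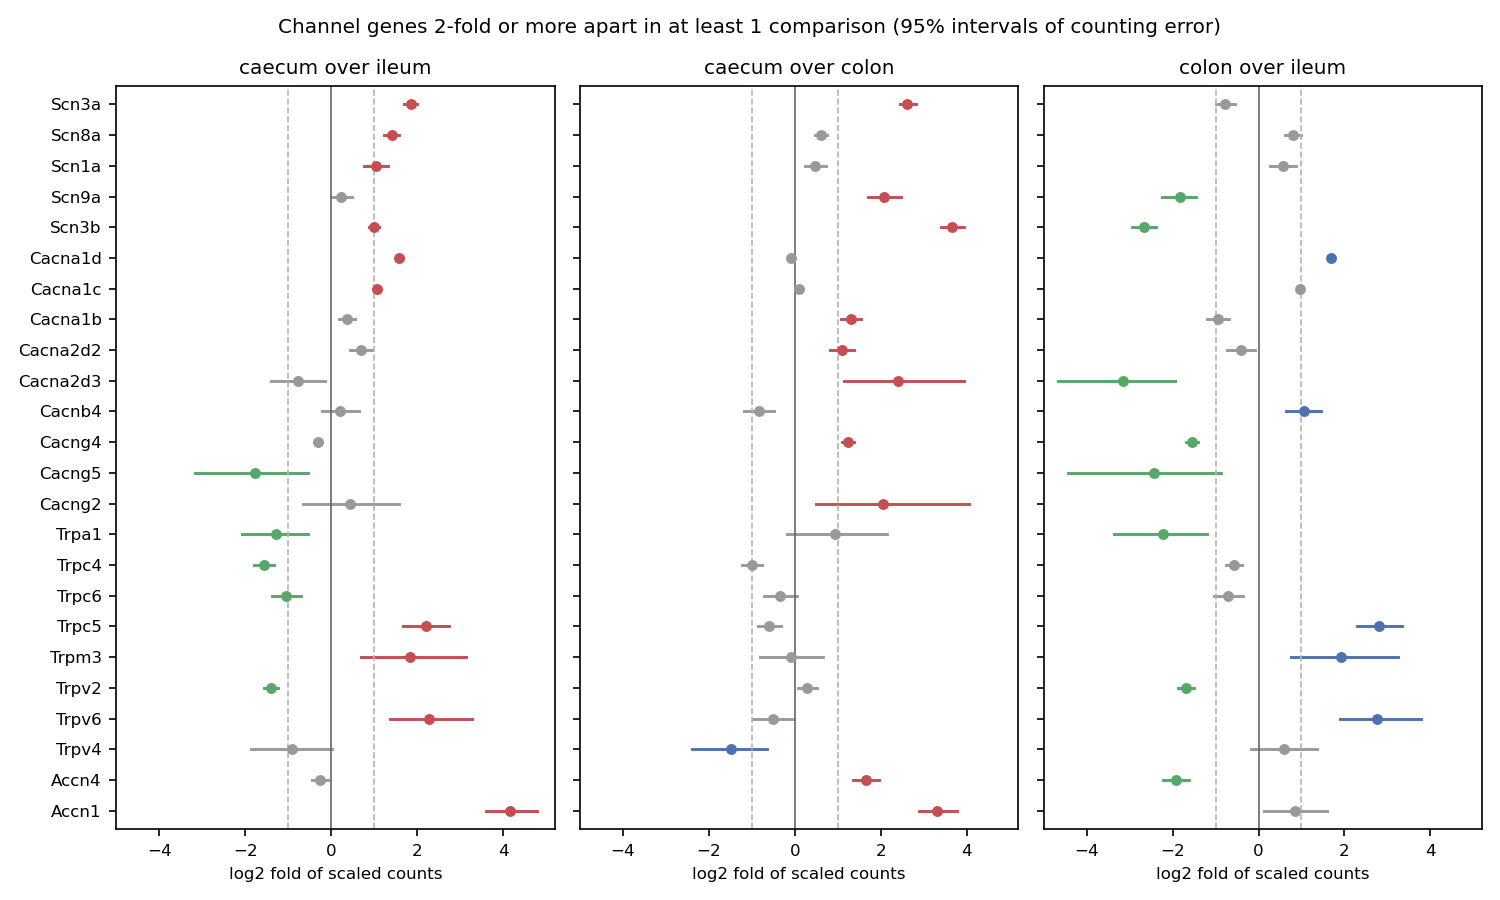
Log2 fold of scaled counts for the 24 members that were 2-fold or more apart in at least 1 comparison, with the caecum set over the ileum (left) and over the colon (middle) and the colon over the ileum (right), and with bars for the 95% interval of counting error and dashed lines at 2-fold. Red points are higher in the caecum, blue in the colon and green in the ileum, and grey points lie within 2-fold.

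Promoters were read for members that differed between segments, to show what DNA lies before the starts of genes with contrasting patterns. The RefSeq table (GRCm38.p6) held 45 of the 57 member genes, with 65 windows of 250 bases before a start. One sequence is shown each for a gene low in the colon (Scn9a), a gene high in the caecum (Accn1, now Asic2, second listed start), and a pair low in the ileum (Cacna1d, second listed start, and Trpc5). Each is given 5′ to 3′ on the minus strand, with every CG in capitals, and gene-level counts do not tell which start was used. The Accn1 window is printed for bases 250 to 62 before the start, because the other 61 bases lie in an annotated exon.
Scn9a, chr2:66634963-66635212: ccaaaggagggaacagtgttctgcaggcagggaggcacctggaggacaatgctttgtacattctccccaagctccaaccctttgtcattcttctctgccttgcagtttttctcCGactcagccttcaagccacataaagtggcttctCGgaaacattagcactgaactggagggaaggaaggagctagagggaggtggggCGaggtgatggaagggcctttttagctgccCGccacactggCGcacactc
Accn1, chr11:81968458-81968646: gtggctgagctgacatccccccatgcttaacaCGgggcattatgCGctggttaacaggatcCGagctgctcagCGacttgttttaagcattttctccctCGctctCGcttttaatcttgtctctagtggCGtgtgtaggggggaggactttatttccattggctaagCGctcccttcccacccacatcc
Cacna1d, chr14:30353487-30353736: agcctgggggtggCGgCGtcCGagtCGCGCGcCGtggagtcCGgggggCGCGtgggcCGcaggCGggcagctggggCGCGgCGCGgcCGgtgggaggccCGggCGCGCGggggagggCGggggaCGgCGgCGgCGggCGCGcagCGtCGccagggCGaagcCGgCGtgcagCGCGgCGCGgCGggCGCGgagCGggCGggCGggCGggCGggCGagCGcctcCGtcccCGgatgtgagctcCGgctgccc
Trpc5, chrX:144688181-144688430: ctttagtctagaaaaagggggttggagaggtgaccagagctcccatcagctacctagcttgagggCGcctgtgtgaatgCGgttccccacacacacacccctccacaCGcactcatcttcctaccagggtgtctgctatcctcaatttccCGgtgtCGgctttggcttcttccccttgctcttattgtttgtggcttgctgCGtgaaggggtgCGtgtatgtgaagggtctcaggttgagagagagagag
The Cacna1d window held 50 CG, the most of the 65 member windows, and 0.0944% of all 32851 windows held as many or more. The window of the first listed Cacna1d start held only 2 CG and has the letters TATAAA. It is not printed because all 250 bases lie in annotated exons. The Scn9a window held 5 CG, the Trpc5 window 7 and the full Accn1 window 9, of which 8 are in the printed stretch. The window of the first listed Accn1 start held 14 CG and is not printed either, since all 250 bases lie in annotated exons. The median was 9.0 over member windows and 6.0 over all windows. The letters TATAAA on either strand occurred in 9.23% of member windows (6 of 65) and in 12.4% of all windows, and in none of the windows of these 4 sequences. The palindromic letters CANNTG occurred in 66.2% of member windows and in 66.2% of all windows, including those of Scn9a and Cacna1d. A match describes the letters only and says nothing of a bound factor.

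Among the pore-forming sodium channel subunits, summed RPKM was 6.96 in the caecum, 3.56 in the colon and 3.36 in the ileum. Scn3a, the embryonic brain-type channel, was the most abundant in the caecum, at 2.59 RPKM in the caecum, 0.423 in the colon and 0.710 in the ileum. Its counts were 2100 in the caecum, 270 in the colon and 448 in the ileum, which made it 3.6-fold higher in caecum than ileum (3.25 to 4.0) and 6.15-fold higher in caecum than colon (5.42 to 7.01). The caecum therefore stood alone for this gene, with the colon lowest at 0.586 times the ileum level (0.502 to 0.683). In bulk tissue a smaller number of cells of a type and less RNA per cell cannot be told apart, and this holds for each difference reported here.

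Scn8a, a channel of axon initial segments and nodes, had 1.68 RPKM in the caecum, 1.10 in the colon and 0.625 in the ileum. It was 2.66-fold higher in caecum than ileum (2.36 to 3.01), and the caecum exceeded the colon by 1.52-fold (1.38 to 1.68). The second identifier named Scn8a, a separate span of 7.37 kb upstream on chromosome 15, had 54 counts in the caecum, 35 in the colon and 24 in the ileum, in the same order. Scn1a, known from inhibitory and sensory neurons, had 394 counts in the caecum, 224 in the colon and 147 in the ileum. Its caecum over ileum fold of 2.06 (1.7 to 2.51) was near the limit and came to 1.89 with the first of the 2 count columns alone. Scn1a was the member whose columns were furthest apart, at 361 and 427 in the caecum and 249.5 and 197.5 in the colon, and the caecum over colon fold of 1.39 became 1.14 with the first column and 1.71 with the second.

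Scn9a, the channel of sensory and sympathetic neurons linked to pain, followed another order. Its counts were 374 in the caecum, 70 in the colon and 243 in the ileum, or 0.541 RPKM in the caecum, 0.128 in the colon and 0.453 in the ileum. The caecum was 4.23-fold higher than the colon (3.27 to 5.54), and the colon lay at 0.28 times the ileum (0.211 to 0.367). Caecum and ileum were close, with a fold of 1.18 (1.0 to 1.4). Scn2a1, a further neuronal channel, had 0.372 RPKM in the caecum, 0.274 in the colon and 0.289 in the ileum. It did not reach 2-fold in any comparison.

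Scn3a, Scn2a1, Scn1a, Scn9a and Scn7a lie in a row on chromosome 2 in the mm9 build, with Scn3a at chr2:65295175-65405684 and Scn9a at chr2:66318137-66473009. Counted from the left end of Scn3a, Scn2a1 spans 163.7 to 310.3 kb, Scn1a 813.7 to 983.7 kb and Scn9a 1023 to 1178 kb. The neighbours did not share one pattern: Scn2a1, the nearest to Scn3a, had a caecum over colon fold of 1.36 (1.09 to 1.7), while Scn3a had 6.15. Scn1a and Scn9a, next to each other, had caecum over colon folds of 1.39 (1.18 to 1.65) and 4.23. Scn7a, beyond them, had 3.5 mean counts in the caecum, 2.5 in the colon and 0 in the ileum.

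**Figure D3:**
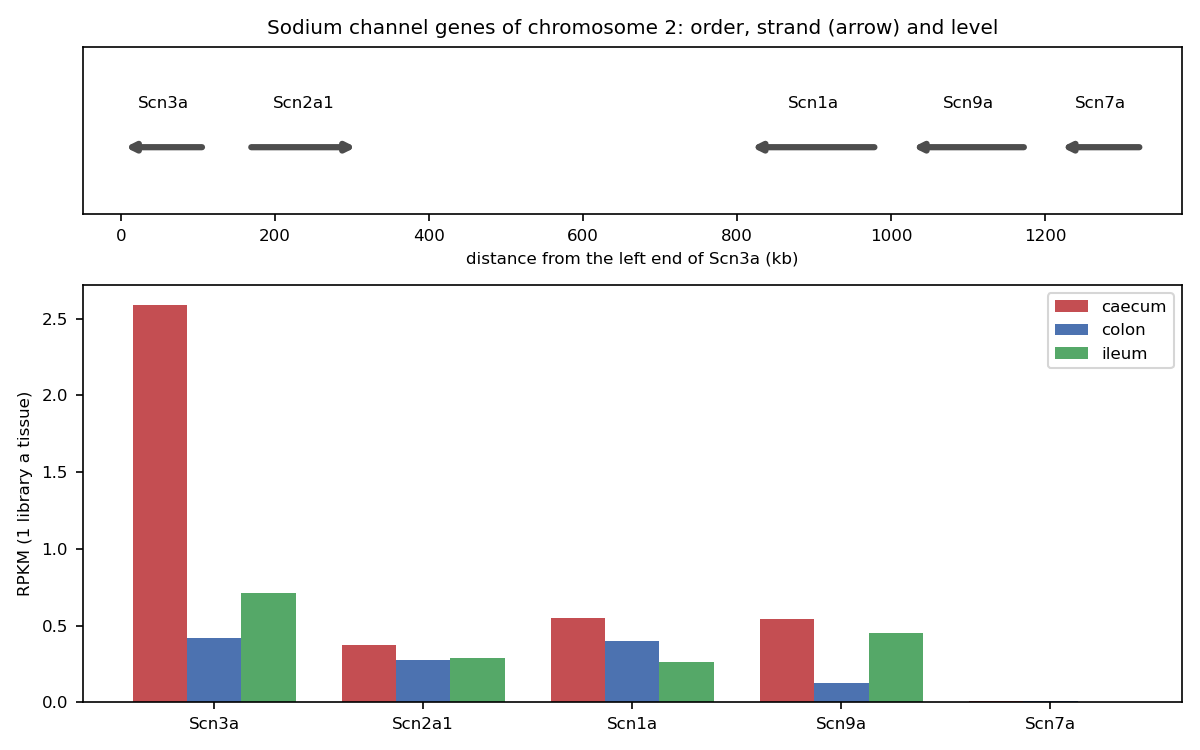
The upper panel maps the 5 sodium channel genes of chromosome 2 by distance from the left end of Scn3a in kb, with arrows for strand, and the lower panel gives their RPKM in the caecum, colon and ileum library. Scn3a reaches 2.59 RPKM in the caecum, and no other bar passes 0.710.

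Of the beta subunits, Scn3b differed most between segments and Scn2b least. Scn3b, found with neuronal sodium channels, had 2146 counts in the caecum, 134 in the colon and 822 in the ileum. It was 12.7-fold higher in caecum than colon (10.6 to 15.2), the largest fold of any member in that comparison, and the colon lay at 0.158 times the ileum (0.131 to 0.19). Its caecum over ileum fold was 2.01 (1.85 to 2.18), and it fell just short of 2 with DESeq2 size factors or with the first count column alone. Scn2b had 3.56 RPKM in the caecum, 4.22 in the colon and 3.45 in the ileum, with folds between 0.849 and 1.2.

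The enteric neuron marker list was low in the same tissue as Scn9a and Scn3b. Caecum over colon, 11 of its 17 genes were higher and 0 were lower, with a median log2 fold of 1.37, and colon over ileum 0 were higher and 10 lower, with a median of -1.08. Caecum over ileum, 0 of the 17 reached 2-fold and the median was 0.17. Their summed RPKM was 275 in the caecum, 133 in the colon and 236 in the ileum, and none of the 17 was at 0. Tubb3, a neuronal tubulin, had 27.3 RPKM in the caecum, 9.16 in the colon and 21.3 in the ileum, whereas Ret, the receptor of enteric neural crest cells, had 28.7 in the caecum, 23.5 in the colon and 20.9 in the ileum. Glial and progenitor markers summed to 106 RPKM in the caecum, 63.7 in the colon and 120 in the ileum, with 2 of the 7 compared higher in caecum than colon, 4 of 7 lower in colon than ileum, and 0 of 7 apart between caecum and ileum. Markers of neurons outside the gut wall summed to 20.8 RPKM in the caecum, 18.2 in the colon and 26.5 in the ileum, with 9 of 10 found and 7 compared. Of these 7, 1 was higher and 2 lower caecum over ileum, 2 higher and 1 lower caecum over colon, and 1 higher and 4 lower colon over ileum. The part of these cell types in the sodium channel differences was not tested.

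The other sodium channel genes and partners were taken from a list of 13, of which 12 were matched, Scnm1 being unmatched. Caecum over ileum 1 of 10 was higher and 0 lower, caecum over colon 4 of 11 were higher and 0 lower, and colon over ileum 1 of 11 was higher and 5 lower. Their median log2 folds were 0.11, 0.81 and -0.54 in those comparisons, against 0.01, 0.01 and -0.00 over all features. Over all features the shares called were 4.59% higher and 2.52% lower caecum over ileum, 5.11% and 2.74% caecum over colon, and 4.04% and 4.29% colon over ileum, and the lists that follow are set against the same shares and medians. Nalcn, the sodium leak channel, had 402 counts in the caecum, 46 in the colon and 360 in the ileum, and its caecum over colon fold was 6.91 (5.09 to 9.6). Unc80, a subunit of the Nalcn complex, had 132 counts in the caecum, 22 in the colon and 110 in the ileum, and Unc79, its partner there, 249 in the caecum, 112 in the colon and 256 in the ileum. Fgf13, an intracellular protein that binds sodium channel tails, had 1418 counts in the caecum, 454 in the colon and 994 in the ileum. Thus the leak channel, its partners and Fgf13 were lowest in the colon, as Scn9a and Scn3b were. Fgf12 of the same family had 114 counts in the caecum, 114 in the colon and 36 in the ileum, and was low in the ileum instead. Ank3, the ankyrin that anchors sodium channels, and Nedd4l, a ubiquitin ligase acting on them, stayed within 2-fold, with Ank3 at 7.83 RPKM in the caecum, 6.01 in the colon and 5.07 in the ileum.

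Acid-sensing channels, relatives of the epithelial sodium channel, differed from each other in their order over the tissues. Accn1 (now Asic2) had 605 counts in the caecum, 48 in the colon and 26 in the ileum, or 2.20 RPKM in the caecum, 0.224 in the colon and 0.119 in the ileum. The caecum was 17.9-fold higher than the ileum (12.1 to 27.6), the largest fold of any member, and 9.97-fold higher than the colon (7.43 to 13.7), while colon over ileum was 1.79 (1.09 to 3.01). Its span at chr11:80693671-81781959 (mm9) contains 1700071K01Rik on the same strand, which had 32 counts in the caecum, 29 in the colon and 34 in the ileum. Accn4 (now Asic4), which is not known to open on protons by itself, had 463 counts in the caecum, 116 in the colon and 426 in the ileum. Caecum over colon its fold was 3.16 (2.57 to 3.9), and the colon lay at 0.265 times the ileum (0.214 to 0.326). Accn2 (now Asic1), the main proton sensor of neurons, was even, at 1.55 RPKM in the caecum, 1.91 in the colon and 1.53 in the ileum. The 3 genes thus had 3 orders: 1 high in the caecum, 1 low in the colon and 1 within 2-fold.

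Calcium channel alpha1 subunits were the most abundant pore-forming subunits of the voltage-gated sodium and calcium families, at a summed 46.7 RPKM in the caecum, 43.1 in the colon and 32.8 in the ileum. The L-type subunits Cacna1d and Cacna1c, which serve muscle contraction and pacemaking, had their lowest level in the ileum. Cacna1d had 7641 counts in the caecum, 6466 in the colon and 1951 in the ileum, or 12.7 RPKM in the caecum, 13.6 in the colon and 4.17 in the ileum. It was 3.01-fold higher in caecum than ileum (2.86 to 3.17) and 3.22-fold higher in colon than ileum (3.06 to 3.39), while caecum over colon was 0.935 (0.904 to 0.966). Cacna1c, the main L-type subunit of heart and smooth muscle, had 10.4 RPKM in the caecum, 9.76 in the colon and 4.92 in the ileum. Its folds of 2.08 caecum over ileum (1.98 to 2.19) and 1.96 colon over ileum (1.86 to 2.06) both stood at the limit.

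Both spans overlap a gene of the other strand, and the strand setting of the counting is not known. Cacna1d at chr14:30853135-31304342 (mm9) shares 11592 bases with Dcp1a, which had 2792 counts in the caecum, 2196 in the colon and 2183 in the ileum, and 518 bases with Chdh, which had 208 in the caecum, 148 in the colon and 42 in the ileum. Cacna1c at chr6:118542314-119146249 shares 20980 bases with Dcp1b, which had 1284 counts in the caecum, 1173 in the colon and 940 in the ileum. Markers of smooth muscle went the other way, at a summed 504 RPKM in the caecum, 670 in the colon and 1245 in the ileum. Markers of interstitial cells of Cajal summed to 85.2 RPKM in the caecum, 119 in the colon and 73.7 in the ileum, with Kit higher in colon than ileum and the other 4 of 5 within 2-fold in each comparison. Epithelial markers summed to 234 RPKM in the caecum, 258 in the colon and 225 in the ileum, with 1 of 10 higher in colon than ileum and no other at 2-fold. The part of these cell types in the Cacna1d and Cacna1c differences was not tested.

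Cacna1b, the N-type subunit of nerve terminals, was lowest in the colon, with 602 counts in the caecum, 193 in the colon and 358 in the ileum. Its caecum over colon fold was 2.47 (2.09 to 2.92), and the colon lay at 0.524 times the ileum (0.438 to 0.626). Cacna1a, the P/Q-type subunit of nerve terminals, had 1.13 RPKM in the caecum, 1.17 in the colon and 0.820 in the ileum, and so did not share that order. Cacna1e, the R-type subunit, had 0.283 RPKM in the caecum, 0.486 in the colon and 0.428 in the ileum. Cacna1s, the L-type subunit of skeletal muscle, had 54 counts in the caecum, 66 in the colon and 46 in the ileum, beside striated muscle markers summing to 3.70 RPKM in the caecum, 4.14 in the colon and 11.3 in the ileum. Most of that ileum sum came from Tnnt2, at 6.78 RPKM, and Actc1, at 2.96. Myod1, Myog, Myf5 and Ckm had at most 2 counts in any tissue, so the sum does not describe them. Of these, Ckm and Myod1 were at 0 in the colon and Myf5 in caecum and ileum. Among the 5 markers that could be compared, 2 were lower caecum over ileum. Caecum over colon 2 were higher and 1 lower, and colon over ileum 1 was higher and 4 lower. None of Cacna1a, Cacna1e and Cacna1s reached 2-fold.

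The T-type subunits, which open at low voltage, were abundant and within 2-fold. Cacna1h was the most abundant alpha1 gene in every tissue, at 15.5 RPKM in the caecum, 13.8 in the colon and 16.0 in the ileum. Cacna1g had 5.71 RPKM in the caecum, 3.67 in the colon and 5.70 in the ileum, and was 1.56-fold higher in caecum than colon (1.48 to 1.65). Cacna1i, the third T-type gene, had at most 5.0 mean counts.

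Among the alpha2delta subunits, Cacna2d1, the form of muscle and many neurons, made up most of the level, at 14.0 RPKM in the caecum, 11.9 in the colon and 15.9 in the ileum. Its folds lay between 0.739 and 1.18. Cacna2d2 had 394 counts in the caecum, 146 in the colon and 188 in the ileum, and a caecum over colon fold of 2.13 (1.76 to 2.6). Cacna2d3 was scarce, with 40 counts in the caecum, 6 in the colon and 52 in the ileum. Its caecum over colon fold of 5.27 (2.22 to 15.2) and colon over ileum fold of 0.112 (0.0394 to 0.261) carry wide intervals. Both minor forms were thus lowest in the colon.

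The intracellular beta subunits were led by Cacnb3, the most abundant member in the caecum, at 26.1 RPKM in the caecum, 19.8 in the colon and 17.4 in the ileum. Caecum over ileum its fold was 1.48 (1.42 to 1.55). Cacnb1, best known from skeletal muscle, had 2.71 RPKM in the caecum, 1.92 in the colon and 1.88 in the ileum. Cacnb2, the main form of heart, had 1.82 RPKM in the caecum, 2.13 in the colon and 1.15 in the ileum, and was 1.82-fold higher in colon than ileum (1.64 to 2.03). Only Cacnb4 of these 4 reached the limit, with 115 counts in the caecum, 162 in the colon and 76 in the ileum and a colon over ileum fold of 2.07 (1.57 to 2.76). The spans of Cacnb2 and Cacnb4 overlap other counted features, and Gm13540 in Cacnb4 had 520 counts in the caecum, 460 in the colon and 421 in the ileum. A430018G15Rik shares 6561 bases with Cacnb4 on the other strand. It had 50 counts in the caecum, 75 in the colon and 40 in the ileum, and so was also highest in the colon. Gm13268 in Cacnb2 had 17901 counts in the caecum, 15368 in the colon and 14224 in the ileum.

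The Cacng genes encode a subunit of the muscle calcium channel and its relatives, several of which, called TARPs, instead escort AMPA glutamate receptors. Cacng7 was the most abundant, at 13.9 RPKM in the caecum, 11.6 in the colon and 10.7 in the ileum. Cacng4, a TARP, had 1660 counts in the caecum, 556 in the colon and 1582 in the ileum. It was 2.36-fold higher in caecum than colon (2.14 to 2.6), and the colon lay at 0.342 times the ileum (0.31 to 0.376), so the colon alone was low. Cacng2 (stargazin), with 21 counts in the caecum, 4 in the colon and 12 in the ileum, had a caecum over colon fold of 4.15 (1.4 to 16.6). Cacng5, next to Cacng4 on chromosome 11, had 8 counts in the caecum, 4 in the colon and 21 in the ileum, a colon over ileum fold of 0.185 (0.0462 to 0.549). Cacng8 had 34 counts in the caecum, 30 in the colon and 22 in the ileum, and no difference was detectable at this depth.

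Regulators of voltage-gated calcium channels and genes of calcium stores were mostly within 2-fold. Of 15 regulators and anchors, 2 were higher and 1 lower caecum over ileum, 3 higher and 0 lower caecum over colon, and 1 higher and 3 lower colon over ileum. Their median log2 folds were 0.02, 0.21 and -0.17 in those comparisons. Gem, a small GTPase that inhibits calcium channels, had 490 counts in the caecum, 460 in the colon and 948 in the ileum, and a caecum over ileum fold of 0.397 (0.356 to 0.444), whereas Cacna1d and Cacna1c were higher in caecum than ileum. Rem1 of the same family had 470 counts in the caecum, 170 in the colon and 246 in the ileum. Rimbp2, a presynaptic anchor of calcium channels, had 139 counts in the caecum, 76 in the colon and 41 in the ileum, and the calmodulin gene Calm2 stayed within 2-fold. Of 21 store and pump genes, 1 was higher and 0 lower caecum over ileum, 2 higher and 0 lower caecum over colon, and 1 higher and 2 lower colon over ileum, with median log2 folds of 0.22, -0.04 and 0.17. The 1 of 21 higher caecum over ileum is near the 4.59% of all features. Ryr1, a calcium release channel, had 424 counts in the caecum, 266 in the colon and 154 in the ileum. Ryr3, another, had 691 counts in the caecum, 262 in the colon and 538 in the ileum, while the pump genes Atp2b1 and Atp2b4 stayed within 2-fold.

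The TRPC channels, opened downstream of receptors that activate phospholipase C, split into opposite orders. Trpc5 had 215 counts in the caecum, 257 in the colon and 36 in the ileum. It was 4.59-fold higher in caecum than ileum (3.21 to 6.73) and 6.94-fold higher in colon than ileum (4.88 to 10.1), the largest fold among members higher in the colon there. Trpc4, its closest relative, had 237 counts in the caecum, 374 in the colon and 538 in the ileum. Its caecum over ileum fold was 0.339 (0.289 to 0.395) and its caecum over colon fold 0.501 (0.424 to 0.591), so the ileum was lowest for Trpc5 and highest for Trpc4. Trpc6 had 120 counts in the caecum, 120 in the colon and 190 in the ileum, a caecum over ileum fold of 0.486 (0.383 to 0.613). The caecum and colon were close for Trpc6, with a fold of 0.791 (0.609 to 1.03).

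Trpc4 and Trpc6 are known as receptor-operated channels of intestinal smooth muscle. The smooth muscle marker list was also highest in the ileum: 0 of its 11 genes were higher and 7 lower caecum over ileum, with a median log2 fold of -1.34, and 0 were higher and 6 lower colon over ileum, with a median of -1.01. Caecum over colon 0 of 11 reached 2-fold and the median was -0.35. None of the 11 was at 0, and Myh11, smooth muscle myosin, had 38.1 RPKM in the caecum, 37.2 in the colon and 114 in the ileum. The part of smooth muscle in the TRPC differences was not tested.

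Trpc1 was within 2-fold in every comparison, at 3.32 RPKM in the caecum, 1.98 in the colon and 3.73 in the ileum, with a colon over ileum fold of 0.52 (0.451 to 0.6). Trpc2, in mouse a channel of vomeronasal neurons, was even, at 9.52 RPKM in the caecum, 8.90 in the colon and 8.09 in the ileum. Its identifier now carries the symbol Xntrpc, a read-through of Trpc2 with an upstream neighbour, so the counts need not be of the channel. Trpc4ap was equally even, at 23.6 RPKM in the caecum, 22.8 in the colon and 22.4 in the ileum.

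Trpm7, a magnesium-permeable channel with a kinase domain, was abundant and even, at 21.2 RPKM in the caecum, 22.2 in the colon and 22.5 in the ileum. Trpm4, a calcium-activated cation channel, had 3.72 RPKM in the caecum, 4.13 in the colon and 3.12 in the ileum. Trpm5, known from taste and tuft cells, had 8.78 RPKM in the caecum, 7.35 in the colon and 10.1 in the ileum. Its span contains all 1845 bases of Tssc4 on the other strand, which had 4344 counts in the caecum, 3231 in the colon and 2766 in the ileum, so reads of the genes may be mixed. The Trpm4 span likewise contains Rpl14-ps1, a ribosomal protein pseudogene with 16660 counts in the caecum, 15830 in the colon and 16706 in the ileum. Trpm2, an oxidant-sensitive channel, had 107 counts in the caecum, 86 in the colon and 100 in the ileum. Only Trpm3, a steroid- and heat-sensitive channel, differed, with 37 counts in the caecum, 31 in the colon and 8 in the ileum and folds of 3.56 caecum over ileum (1.63 to 8.84) and 3.77 colon over ileum (1.69 to 9.48). With the first count column alone its caecum over ileum fold was 5.36.

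Trpv2, a channel of inhibitory enteric neurons and macrophages as well as other cells, was high in the ileum, with 466 counts in the caecum, 302 in the colon and 945 in the ileum. Caecum over ileum its fold was 0.379 (0.339 to 0.424), and colon over ileum 0.311 (0.272 to 0.354). Trpv6, the epithelial calcium uptake channel, had the opposite order, with 75 counts in the caecum, 84 in the colon and 12 in the ileum. Its folds were 4.81 caecum over ileum (2.6 to 9.71) and 6.8 colon over ileum (3.7 to 13.7), beside an epithelial list in which 0 of 10 genes reached 2-fold caecum over ileum. Trpv4, a channel opened by stretch and warmth, was highest in the colon, with 18 counts in the caecum, 40 in the colon and 26 in the ileum and a caecum over colon fold of 0.356 (0.192 to 0.635). Trpa1, the irritant receptor, was highest in the ileum, with 24 counts in the caecum, 10 in the colon and 45 in the ileum. Its caecum over ileum fold was 0.41 (0.239 to 0.687) and its colon over ileum fold 0.216 (0.097 to 0.435).

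Of 21 other cation channels, 12 were compared, and 2 were higher and 1 lower caecum over ileum, 0 differed caecum over colon, and 2 were higher and 0 lower colon over ileum, with median log2 folds of -0.01, -0.11 and 0.12. Mcoln3, a TRP-related channel of endosomes, had 900 counts in the caecum, 722 in the colon and 330 in the ileum, and a colon over ileum fold of 2.13 (1.86 to 2.43). Pkd2, the polycystin channel of cilia, and Fam38a, now Piezo1, a stretch-opened channel, stayed within 2-fold.

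All 3 HCN genes and all 7 Clcn genes described stayed within 2-fold in each comparison. The same held for most features: 16559 of 17827 caecum over ileum, 16496 of 17900 caecum over colon and 16114 of 17579 colon over ileum. Hcn3 had 0.755 RPKM in the caecum, 0.635 in the colon and 1.07 in the ileum, and Hcn4, the main sinus node form, had 0.695 in the caecum, 0.493 in the colon and 0.599 in the ileum. The widest HCN fold was 0.587 colon over ileum for Hcn3 (0.47 to 0.73), whose span shares 711 bases with Pklr on the other strand. Pklr had 317 counts in the caecum, 236 in the colon and 513 in the ileum, the same order as Hcn3, so reads may be mixed. Hcn2 had 40 counts in the caecum, 26 in the colon and 22 in the ileum, too few to detect a small difference.

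Clcn genes summed to 46.1 RPKM in the caecum, 41.5 in the colon and 42.3 in the ileum. The endosomal and lysosomal exchangers were steady: Clcn4-2, now Clcn4, had 11.6 RPKM in the caecum, 10.9 in the colon and 12.5 in the ileum, and Clcn7, the lysosomal form, had 7.37 in the caecum, 7.73 in the colon and 7.27 in the ileum. Clcn5 had 7.26 RPKM in the caecum, 7.63 in the colon and 6.71 in the ileum. Clcn6 had 7.95 in the caecum, 6.27 in the colon and 5.98 in the ileum, and Clcn3 had 2.77 in the caecum, 2.80 in the colon and 3.34 in the ileum. Clcn2, a surface channel of epithelium and glia, was 1.47-fold higher in caecum than colon (1.39 to 1.56), at 8.84 RPKM in the caecum, 6.02 in the colon and 6.31 in the ileum. Clcn1, the skeletal muscle channel, had 94 counts in the caecum, 62 in the colon and 48 in the ileum. Its span shares 445 bases with Fam131b on the other strand, so reads may be mixed. Fam131b had 692 counts in the caecum, 353 in the colon and 300 in the ileum.

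Several genes reached 2-fold in a list of chloride channels outside the Clcn family, Clcn partners and related names. A place in this list does not mean that a gene encodes a chloride channel. Of 20 listed, 1 was higher and 4 lower caecum over ileum (17 compared), 2 higher and 2 lower caecum over colon (16 compared), and 0 higher and 7 lower colon over ileum (17 compared). Their median log2 folds were -0.16, 0.12 and -0.50. Clca1 had 91 counts in the caecum, 230 in the colon and 680 in the ileum, a caecum over ileum fold of 0.103 (0.0817 to 0.128). Clca2 had 26 counts in the caecum, 58 in the colon and 168 in the ileum, in the same order. Ano5, a muscle member of the anoctamin family, had 132 counts in the caecum, 10 in the colon and 22 in the ileum. Ttyh1, a tweety family protein of neural cells, had 682 counts in the caecum, 78 in the colon and 864 in the ileum. Clic6 had 1074 counts in the caecum, 606 in the colon and 1708 in the ileum, and Clic5 had 742 in the caecum, 378 in the colon and 914 in the ileum. Clic4 and Ttyh3 were more abundant and within 2-fold. Ano1, which also stands in the list for interstitial cells of Cajal, was within 2-fold too.

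Set against both other tissues at once, some members took 1 of 4 orders, with shares read against 18005 features that could be compared. Higher in the caecum than in both were Accn1, Scn3a and Scn3b, 5.17% of members and 1.84% of all features. Lower in the colon than in both were Cacng4, Accn4, Cacna2d3, Scn9a and Scn3b, 8.62% of members and 2.20% of all features. Higher in the ileum than in both were Cacng5, Trpa1 and Trpv2, 5.17% of members and 1.33% of all features. Lower in the ileum than in both were Trpc5, Trpm3, Trpv6 and Cacna1d, 6.90% of members and 1.78% of all features. No member was lower in the caecum than in both, against 0.578% of all features, and 0 were higher in the colon than in both, against 1.53%. Trpc4, at 0.339 caecum over ileum and 0.501 caecum over colon, just missed being lower in the caecum than in both. It passed with DESeq2 size factors, library totals or RPKM ratios. Scn3b met both the caecum and the colon rule, but its caecum over ileum fold fell just short of 2 with DESeq2 size factors or the first count column.

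**Figure D4:**
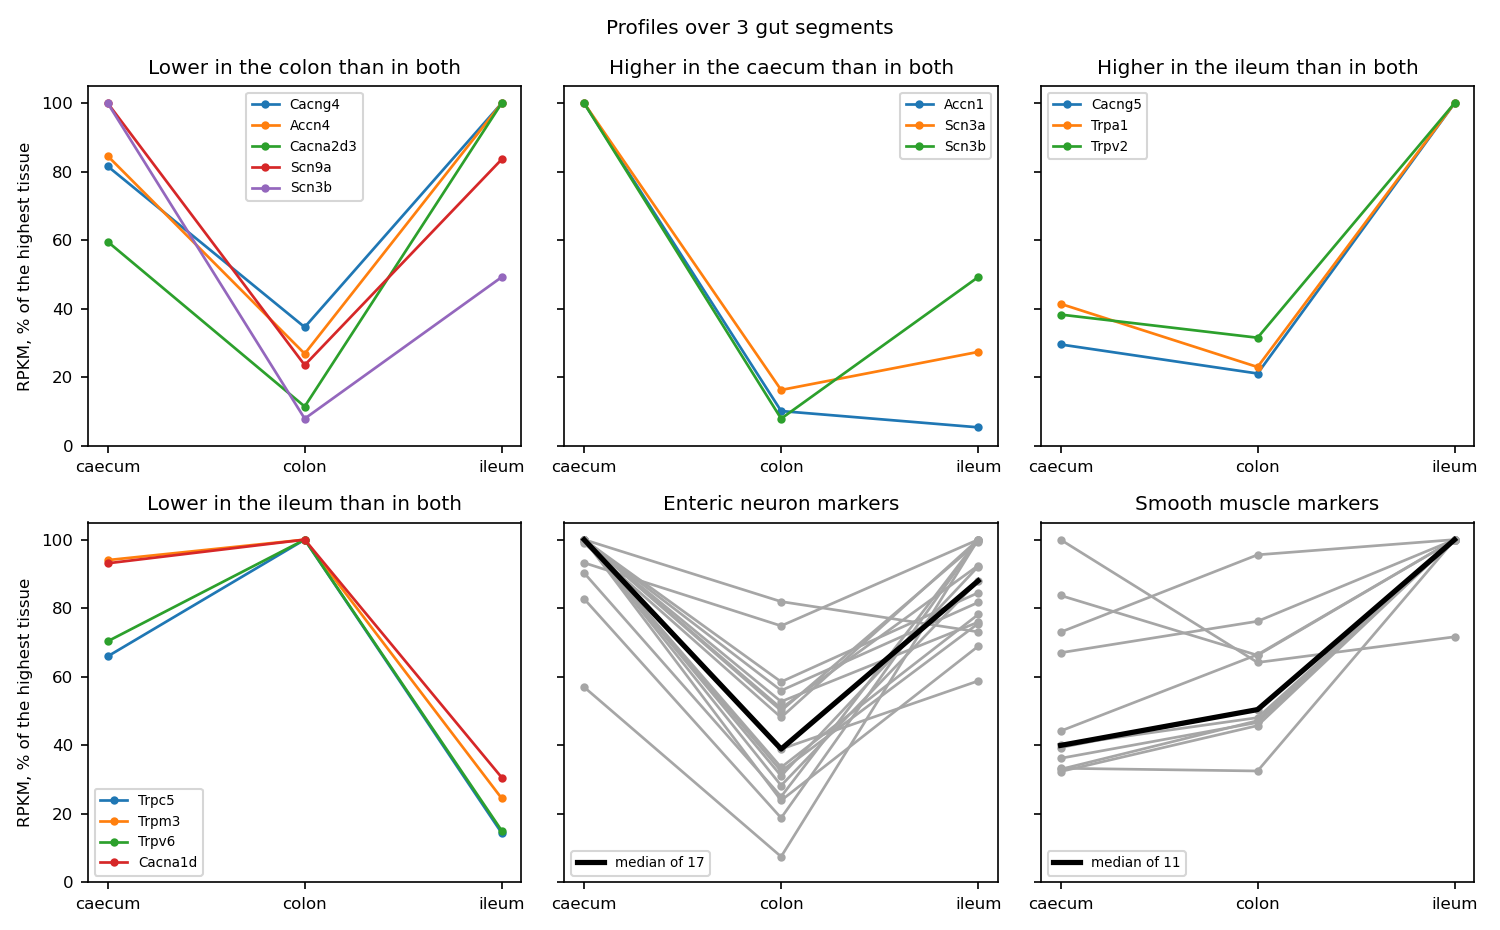
RPKM as a percentage of each gene's highest tissue, in the order caecum, colon, ileum, for the members in each of the 4 orders and for enteric neuron and smooth muscle marker genes (grey lines, with the median in black). The colon-low members have a median of 84.6% in the caecum, 23.6% in the colon and 100% in the ileum, neuron markers 100%, 38.9% and 88.0%, and smooth muscle markers 40.0%, 50.4% and 100%, always in that order of tissues.

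Endothelial markers had 0 of 7 genes at 2-fold in any comparison. Blood cell markers had 1 of 9 higher and 1 lower caecum over ileum, 1 of 9 higher caecum over colon, and 0 of 8 apart colon over ileum. Enteroendocrine markers summed to 5.23 RPKM in the caecum, 5.50 in the colon and 4.67 in the ileum, with Neurod1 and Neurog3 at 0 in all 3. The sum hides opposite orders. Isl1 had 0.0676 RPKM in the caecum, 3.04 in the colon and 0.150 in the ileum, whereas Chga, Chgb and Insm1 were each lowest in the colon. Of the 4 compared, 1 was higher and 1 lower both caecum over colon and colon over ileum. Mesothelial markers summed to 45.6 RPKM in the caecum, 53.3 in the colon and 35.3 in the ileum, with 1 of 5 lower caecum over colon and 1 of 5 higher colon over ileum.

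Of the 24 members under the limit, 1, Accn5, was at 0 in every library. The others included Scn4a, Scn4b, Scn7a, Scn10a, Scn11a, Cacna1f, Cacna1i, Cacna2d4, Cacng1, Cacng3, Cacng6, Trpc7, Trpm1, Trpm6, Trpm8, Trpv1, Trpv3, Trpv5 and Accn3. Trpv1, the capsaicin receptor, had 3.0 mean counts in the caecum, 4.0 in the colon and 1.0 in the ileum, and Scn10a and Scn11a, sodium channels of sensory and mature enteric neurons, had at most 1.5 and 7.0. Near the limit, Cacng6 had 14.5 and Cacna1f 12.5 mean counts in their highest tissue, and just above it stood Cacng5 and Cacng2 at 21 each, Cacng8 at 33.5 and Trpm3 at 37. No fold is given for the members under the limit. Of the 58 members counted, 13 overlap another feature with at least 20 counts, 12 of them one on the other strand.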

How the data were processed

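Polyadenylated RNA of 3 embryonic mouse gut segments was sequenced as paired reads of 100 bases, per the labels' protocols. Bowtie 0.12.7, DESeq and the mm9 build are named in the submitters' processing notes. The counting program, annotation and strand setting are not given in the sources used here. The authors deposited, per tissue, 2 columns of expected counts in steps of 0.5 and 2 columns of RPKM, numbered rep 1 and rep 2 per the file headers. Both units were averaged over the 2 columns, and the deposited expected counts were then rounded, since the same genes held values ending in 0.5 in both columns. Counts were scaled by TMM factors (edgeR 4.0.16 in R 4.3.3; 1.002 caecum, 1.006 colon, 0.9915 ileum). A feature was compared where its higher library reached 20 counts. Intervals are exact Clopper-Pearson intervals at 95%, of counting error only. The code for folds and intervals was run on simulated counts (Python 3.11.15, numpy 2.4.6, pandas 2.3.3, scipy 1.17.1, matplotlib 3.10.9). These held counting error only, so they cannot speak to the spread between embryos. DESeq2 1.42.0 size factors, library totals, other minimums, single columns and RPKM ratios were alternatives.

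Members with at least 20 mean counts in a tissue are named, and a few genes of the families and lists are counted but not reported here by name. From the partner lists, genes past 2-fold with at least 100 counts are named, at most 6 a list by distance from no difference, plus up to 2 others within 2-fold with the highest counts. Members, lists and rules were chosen with earlier results of these data known. Symbols are the table's, and 57 of the 58 counted features have a current symbol. mm9 starts were shifted by 1 from the 0-based table. Promoter windows and their coordinates are from RefSeq (GRCm38.p6) and were not converted between builds. Only the printed sequences leave out bases in annotated exons. The CG counts and letter matches used all 250 bases of each window, including any in exons. Protein sequences were not used here.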

Additional observations from a re-analysis of the deposited data

How the results depend on the processing

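No paired analysis was possible because the labels give 1 sample per tissue and no replicate numbers, and for the same reason no library could be left out. The table's rep 1 and rep 2 columns differ by less than counting noise and were counted as 1 sample. The first column alone gave 8 higher and 5 lower caecum over ileum and the second 10 and 6, and the other counts were unchanged with either. The counts of members past 2-fold were 10 higher and 5 lower caecum over ileum, 10 and 1 caecum over colon, and 5 and 8 colon over ileum. Several settings moved them by more than 1.5 times. Requiring the whole interval past 2-fold gave 6 higher and 2 lower caecum over ileum, 0 lower caecum over colon and 3 higher colon over ileum. A minimum of 100 counts gave 3 lower caecum over ileum, 0 lower caecum over colon, and 3 higher and 5 lower colon over ileum. No minimum gave 4 lower caecum over colon and 10 higher colon over ileum. A limit of 1.5-fold gave 9 lower caecum over ileum, 6 lower caecum over colon, and 9 higher and 14 lower colon over ileum. DESeq2 size factors, library totals and RPKM ratios each gave 2 lower caecum over colon, because Trpc4, at 0.501, then passed the limit. Leaving out members that overlap another counted feature, an alternative chosen after seeing the data, gave 3 higher colon over ileum, since Cacna1d and Cacnb4 were among those left out. Summing both Scn8a identifiers without Trpc4ap, also added then, moved none of the 6 counts by that much. Of 860 single-gene folds recomputed under another scaling, 1 column alone or RPKM ratios, 195 belong to called folds, and 0 of these changed direction. Among folds within 2-fold, 11 fell on the other side of 1. Only Scn1a caecum over colon, in 2 cases, left the interval of counting error. Called folds ended in 3 cases, Scn1a with the first column and Scn3b with DESeq2 size factors or the first column, and Trpv4 caecum over ileum became 0.437 with the second column. Only Trpm3 caecum over ileum moved by over 1.5 times, to 5.36 with the first column. With 1 library a tissue the spread between embryos is unknown, and genes under 100 counts carry the widest intervals.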
